A study of Homo sapiens with 4 samples.

Results

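The joint response to 2 compounds was described across genes in OMM2.3, an established uveal melanoma cell line, by setting cells given CCCP and DHA together against control cells. CCCP, a chlorophenyl hydrazone of carbonyl cyanide, uncouples respiration: it carries protons over membranes and collapses the proton gradient across the inner mitochondrial membrane. DHA is not spelled out in the labels. All cells were grown with 10% fetal bovine serum, and the sources used here do not give doses, times or what the control cells received. RNA was sequenced from 1 library in each of 4 groups, namely both compounds, CCCP alone, DHA alone and control. Expression is given as FPKM, fragments per kilobase of exon scaled for library size, which allows levels to be set side by side between genes. Of 58735 annotated genes, 13016 had at least 1 FPKM with CCCP + DHA or in control and are called measured, and 10744 of them were protein coding.

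A log2 ratio here is that of FPKM + 0.5 with CCCP + DHA over control, and a gene is counted as higher or lower where that ratio was at least 2-fold. A fold difference is the ratio of FPKM without that addition, followed by its exact 95% binomial interval, which covers counting error only. With 1 library per group no difference has a replicate check and no test between conditions was possible. The libraries held 16900411 reads with CCCP + DHA, 16942245 with CCCP, 17347602 with DHA and 18937286 in control, and 3.85, 5.09, 5.18 and 4.80% of those reads lay in mitochondrial genes.

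Uncoupled mitochondria, scarce amino acids and oxidative stress all feed into the integrated stress response, in which phosphorylation of the initiation factor eIF2 lowers general translation while the mRNA of the transcription factor ATF4 is translated more. ATF4 and its partners drive genes of amino acid uptake and synthesis and of tRNA charging, and the later factor CHOP. NRF2, which drives antioxidant genes, and HIF, which drives glycolysis under low oxygen, are further regulators that respond to mitochondrial and redox state.

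Of the measured genes 591, or 4.54%, were higher with CCCP + DHA than in control and 703, or 5.4%, were lower, 9.94% in either direction. Above control lay 51.4% of measured genes and below it 48.6%. Protein-coding genes made up 238 of the higher genes (2.22% of those measured) and 401 of the lower ones (3.73%), and the interval excluded 1 for each of these protein-coding genes. Lower protein-coding genes thus outnumbered higher ones, but at larger folds the order was the other way round. At least 4-fold differences were found in 41 genes that were higher and 27 that were lower, at least 8-fold in 16 and 4, and at least 16-fold in 6 and 1. Most protein-coding genes lay near control, with 81.7% within 1.5-fold and quartiles of the log2 ratio at -0.27 and 0.27. The quartiles were -0.20 and 0.18 for CCCP alone and -0.12 and 0.12 for DHA alone, both set against the same control library. Because a gene could enter through 1 of the 2 libraries, 734 genes were measured only through CCCP + DHA, 304 of them called higher, and 788 only through control, 296 of them called lower.

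**Figure D1:**
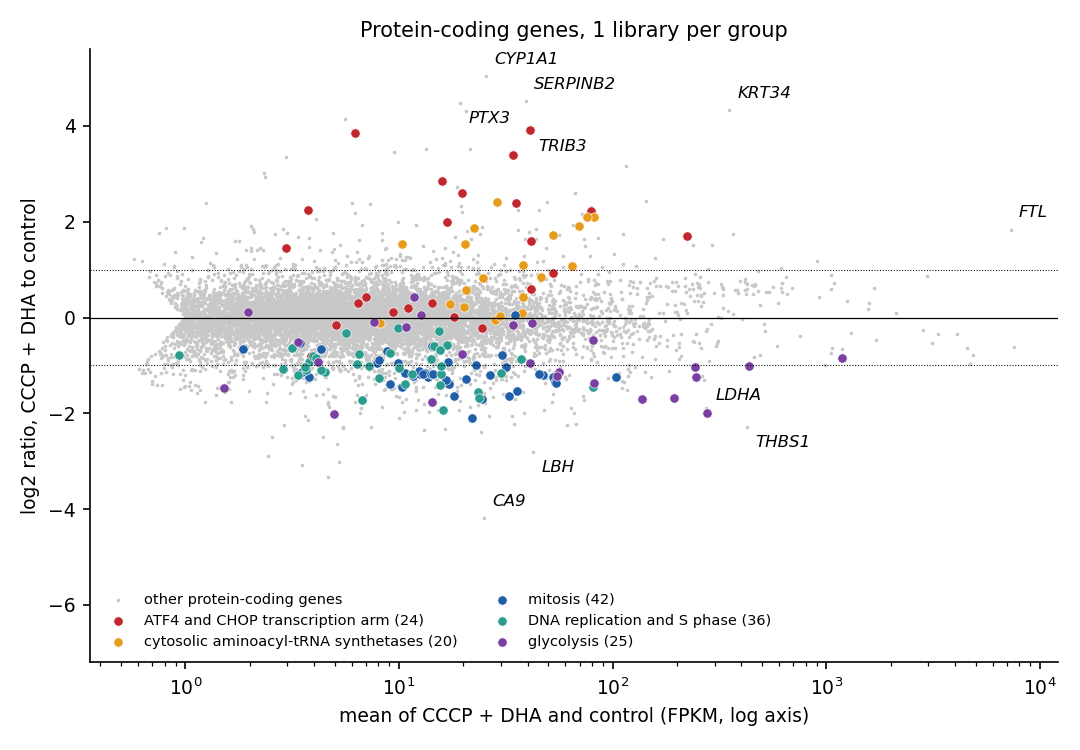
Log2 ratio of CCCP + DHA to control against the mean FPKM of these 2 libraries (log axis) for the 10744 measured protein-coding genes, with members of 5 gene lists coloured and dotted lines at 2-fold. Of the ATF4 and CHOP arm 13 of 24 genes lie past the upper line, and all S phase genes lie below 0.

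Genes of the ATF4 and CHOP arm formed a large group on the higher side. All 24 listed genes were measured, 13 were higher and 0 lower, and their median log2 ratio was 1.27 against 0.01 over all measured protein-coding genes. The same 24 genes had medians of 0.26 with CCCP alone and 0.61 with DHA alone. Of the 13, 2 lay under 1 FPKM in control and were measured only through CCCP + DHA, so the filter fixed their direction. ATF4 itself stood at 342 FPKM with CCCP + DHA, 129 with CCCP, 229 with DHA and 104 in control. It was 3.28-fold (3.17 to 3.38) higher, the single-compound libraries lying between control and the combination.
The mRNA of DDIT3, which encodes CHOP, a factor that promotes cell death under prolonged stress, had 63 FPKM with CCCP + DHA, 7.37 with CCCP, 12.7 with DHA and 5.5 in control. It was 11.4-fold (9.61 to 13.7) higher, and the combination library stood far above the other 3. TRIB3, a pseudokinase that feeds back on ATF4 and CHOP, showed the same order at 77.4, 7.27, 16.3 and 4.67 FPKM with CCCP + DHA, CCCP, DHA and control. CEBPG, a dimer partner of ATF4, had 59.5 FPKM with CCCP + DHA, 15 with CCCP, 27.8 with DHA and 10.9 in control and was 5.44-fold (5.07 to 5.85) higher. SESN2, which restrains mTORC1 when leucine is scarce, was 8.12-fold (7.08 to 9.35) higher. It was the 1 higher gene among 17 measured brakes on mTORC1, or 5.88%. The share was 4.54% over all measured genes and 2.22% over protein-coding ones. PPP1R15A, which encodes a phosphatase subunit that reverses eIF2 phosphorylation, was 4.77-fold (4.52 to 5.04) higher, whereas its constitutive relative PPP1R15B was 1.24-fold (1.15 to 1.34) higher. The eIF2 kinase genes did not share these folds. EIF2AK1 and EIF2AK3, encoding HRI and PERK, had log2 ratios of -0.22 and -0.80, and EIF2AK4 and EIF2AK2, encoding GCN2 and PKR, 0.20 and 0.12. Transcripts known to be short-lived, a sign of how cells and RNA were handled, had a median of 0.40 over 20 measured genes in this library, with ATF3 on both lists, and their part in these values was not tested.

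**Figure D2:**
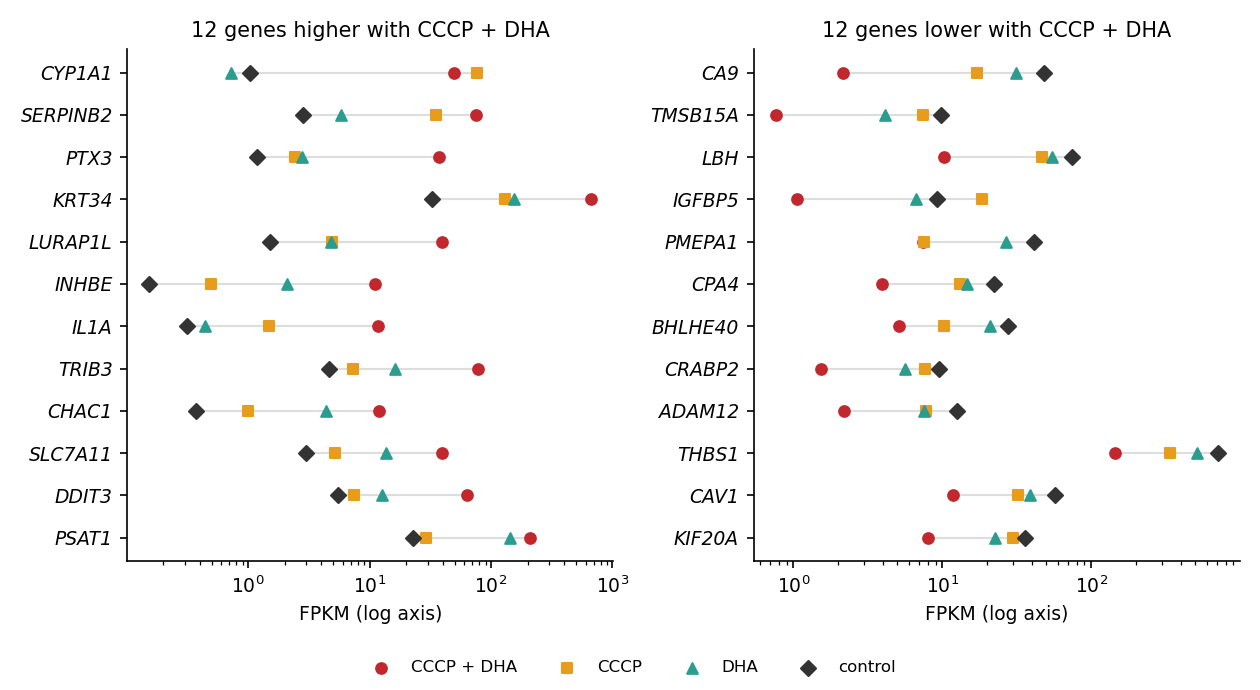
FPKM in each of the 4 libraries (log axis, 1 point per library, so no error bars) for 12 genes that were higher (left) and 12 that were lower (right) with CCCP + DHA. The genes shown are a selection from the largest ratios. All but CYP1A1 of the higher genes shown peak with CCCP + DHA, and the 12 lower genes shown have their lowest level there. MYLK2, a lower gene with a ratio in the same range, is not shown. It was lowest with CCCP alone, at 0.925 FPKM against 1.52 with CCCP + DHA.

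Amino acid synthesis genes were split by pathway. Of 20 measured, 8 were higher and 1 lower, and ASNS, 1 of the 8, was measured only through CCCP + DHA. The serine arm was higher throughout, with PHGDH, PSAT1 and PSPH, its 3 successive enzymes, at log2 ratios of 1.68, 3.17 and 1.25. PSAT1 had 209 FPKM with CCCP + DHA, 29.3 with CCCP, 144 with DHA and 22.7 in control, so that the libraries with DHA stood well above those without it. SHMT2 and MTHFD2, which carry the serine carbon into mitochondrial folates, were 3.34-fold (3.19 to 3.5) and 4.86-fold (4.59 to 5.15) higher. Their cytosolic counterparts SHMT1 and MTHFD1 were instead 1.77-fold (1.61 to 1.96) and 1.36-fold (1.28 to 1.44) lower. PCK2, the mitochondrial phosphoenolpyruvate carboxykinase, had 32.7 FPKM with CCCP + DHA, 6.97 with CCCP, 17.2 with DHA and 4.53 in control and was 7.22-fold (6.46 to 8.07) higher. ASNS, the asparagine synthetase, was scarce at 2.45 FPKM with CCCP + DHA, 0.403 with CCCP, 0.834 with DHA and 0.0577 in control, and its 42.4-fold (17.9 to 132) higher level rested on few control reads. The genes for making proline differed too, PYCR1 at 0.99 and ALDH18A1 at -0.54 on the log2 scale.

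Amino acid transporter genes were higher in part. Of 15 measured genes 5 were higher and 0 lower, and 1 of the 5 was measured only through CCCP + DHA. SLC7A5, the light chain of the large neutral amino acid carrier, had 114 FPKM with CCCP + DHA, 25.4 with CCCP, 65.8 with DHA and 18.5 in control. Its heavy chain SLC3A2, shared with the cystine carrier, had 59.9 FPKM with CCCP + DHA, 17 with CCCP, 35.2 with DHA and 12.3 in control. Both were lowest in control and highest with CCCP + DHA, 6.19-fold (5.88 to 6.52) and 4.86-fold (4.57 to 5.18) higher. The cystine carrier SLC7A11 had 39.8 FPKM with CCCP + DHA, 5.18 with CCCP, 13.7 with DHA and 3.01 in control and was 13.2-fold (12.1 to 14.4) higher. The next steps of cysteine supply were uneven. CTH, which releases cysteine from cystathionine, had 17.7 FPKM with CCCP + DHA, 2.23 with CCCP, 5.58 with DHA and 1.17 in control and was 15.1-fold (11.5 to 20.3) higher, but CBS, the enzyme before it, was 1.02-fold (0.83 to 1.26) higher. CHAC1, which breaks glutathione down, had 12.1 FPKM with CCCP + DHA, 0.989 with CCCP, 4.34 with DHA and 0.374 in control. Its ratio of 32.2-fold (19.3 to 58) higher rested on 15 control reads, against 428 with CCCP + DHA. GCLC, the catalytic subunit of the first step of glutathione synthesis, was 2.52-fold (2.26 to 2.81) higher, and GPX4, the peroxidase that uses glutathione on lipid peroxides, was 1.13-fold (1.08 to 1.19) lower. On a list of genes tied to ferroptosis, the iron-dependent death that follows lipid peroxidation, 7 of 17 measured genes were higher and 0 lower. These 7 included CHAC1, SLC7A11 and SLC3A2, which are also ATF4 targets, FTH1, and SAT1, a polyamine acetyltransferase, which was 3.15-fold (2.94 to 3.39) higher. Of the 7, CHAC1 was measured only through CCCP + DHA.

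tRNA charging separated by compartment. Among the 20 cytosolic aminoacyl-tRNA synthetase genes, the enzymes that load amino acids onto tRNA, 10 were higher, 0 were lower and the median log2 ratio was 0.96. Among 16 measured mitochondrial ones 0 were higher or lower, with ratios between -0.37 and 0.38. WARS, for tryptophan, had 48.8 FPKM with CCCP + DHA, 9.5 with CCCP, 23 with DHA and 8.82 in control. AARS, for alanine, had 133 FPKM with CCCP + DHA, 40.3 with CCCP, 71.4 with DHA and 30.5 in control, and MARS, for methionine, had 35.5 FPKM with CCCP + DHA, 9.98 with CCCP, 21.9 with DHA and 9.4 in control. In these 3 genes the libraries ordered alike, with CCCP + DHA highest, DHA next, and CCCP close to control. WARS was 5.54-fold (5.19 to 5.91) higher, AARS was 4.35-fold (4.17 to 4.54) higher and MARS was 3.78-fold (3.55 to 4.02) higher. GARS and KARS serve both compartments from 1 gene, and they differed, at log2 ratios of 2.10 and 0.43. The cytosolic enzymes for glutamine, aspartate, arginine and histidine lay near control, QARS at 0.10, DARS at 0.04, RARS at -0.05 and HARS at -0.11. XPOT, which exports tRNA from the nucleus, was 3.08-fold (2.95 to 3.22) higher.

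**Figure D3:**
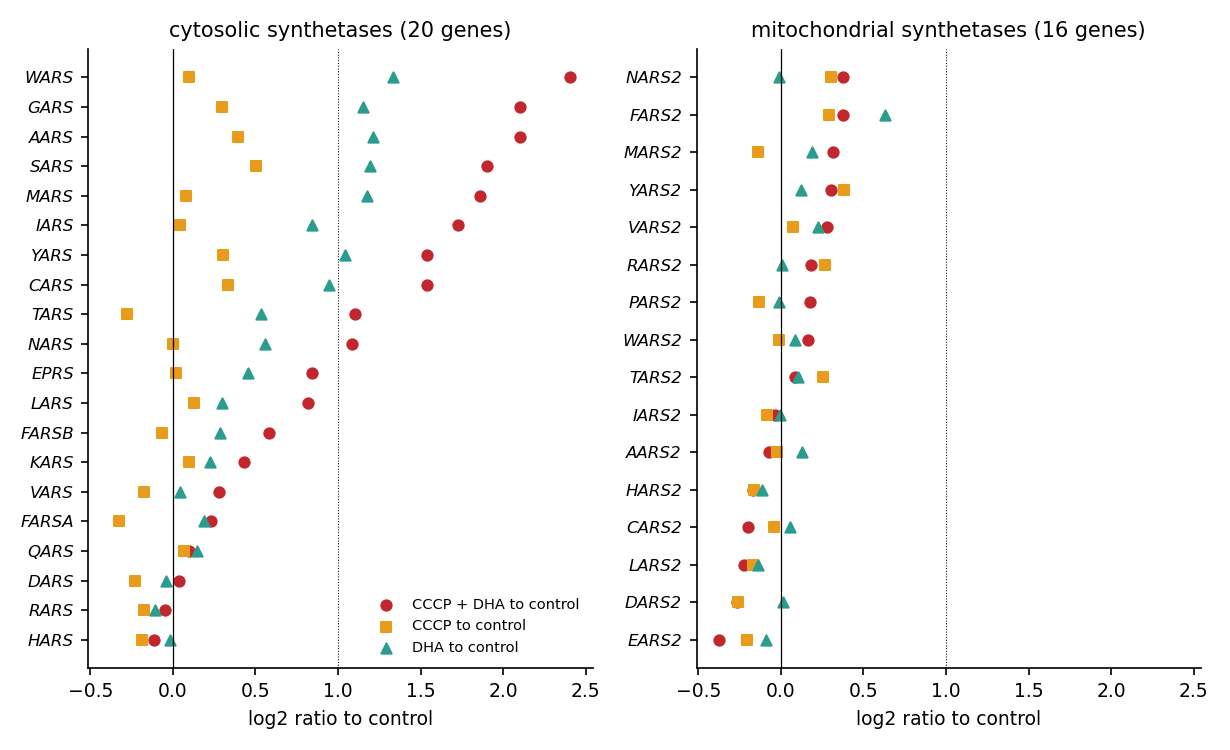
Log2 ratio to control of the cytosolic (20) and mitochondrial (16) aminoacyl-tRNA synthetase genes with CCCP + DHA and with each compound alone, 1 point per gene, all set against the same control library. With CCCP + DHA 10 cytosolic genes lie past 2-fold, and the mitochondrial genes stay between -0.37 and 0.38.

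ATF4 with a C/EBP partner binds a composite element, and promoters of this group were searched for its letters TGATGCAA on both strands, in RefSeq windows of 300 bases on GRCh38.p14 that run from 250 before to 50 after a gene's start. The element was found in 0.866% of all 35116 windows and, counting any window of a gene, in 0.712% of the 8845 measured protein-coding genes that had a window. It lay in 6 of 16 cytosolic synthetase genes that had a window, all 6 among the 9 that were higher, in 0 of 7 that were not, and in 0 of 13 mitochondrial ones. In the ATF4 and CHOP arm it lay in 5 of 22 genes, 4 of 12 that were higher, among them CHAC1 and CEBPG, and 1 of 10 that were not. NARS is on both lists and is counted among these 4 and among the 6 synthetase genes. In amino acid synthesis the order was the other way round, with the element in 0 of 5 higher genes and in 3 of 8 that were not, BCAT1, GOT1 and MTHFD1L. A match describes letters and is not evidence of binding, and no match says nothing of sites outside the window. The windows of CHAC1 (chr15:40953221-40953520, plus strand), AARS, called AARS1 in RefSeq (chr16:70289457-70289756, minus strand), and MARS, called MARS1 (chr12:57487818-57488117, plus strand), are shown because their genes are among the higher ones of the stress groups and they carry the element, printed in capitals on whichever strand it lay. It begins 209, 187 and 4 bases before the start.
CHAC1: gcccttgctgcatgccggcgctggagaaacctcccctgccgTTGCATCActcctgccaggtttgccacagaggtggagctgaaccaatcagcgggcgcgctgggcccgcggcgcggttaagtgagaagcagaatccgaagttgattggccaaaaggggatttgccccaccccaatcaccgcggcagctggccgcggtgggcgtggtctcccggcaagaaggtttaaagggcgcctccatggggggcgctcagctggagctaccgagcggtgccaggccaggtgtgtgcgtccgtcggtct
AARS1: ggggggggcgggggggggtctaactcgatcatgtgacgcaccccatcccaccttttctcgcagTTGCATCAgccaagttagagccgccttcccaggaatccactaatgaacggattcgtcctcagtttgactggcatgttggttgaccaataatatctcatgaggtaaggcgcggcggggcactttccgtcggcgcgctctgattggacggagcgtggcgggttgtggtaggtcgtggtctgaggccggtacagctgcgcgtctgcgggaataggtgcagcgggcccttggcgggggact
MARS1: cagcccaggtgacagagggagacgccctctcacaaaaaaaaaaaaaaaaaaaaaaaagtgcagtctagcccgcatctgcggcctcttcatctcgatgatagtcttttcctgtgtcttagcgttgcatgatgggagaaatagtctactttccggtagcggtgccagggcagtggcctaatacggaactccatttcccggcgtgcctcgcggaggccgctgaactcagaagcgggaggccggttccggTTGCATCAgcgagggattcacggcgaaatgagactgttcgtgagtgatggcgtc

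Secreted products of stressed cells were higher as well. INHBE, an inhibin chain, had 11.1 FPKM with CCCP + DHA, 0.496 with CCCP, 2.08 with DHA and 0.153 in control, and its ratio of 72.2-fold (37.8 to 159) higher rested on 9 control reads. STC2, a secreted glycoprotein, had 34 FPKM with CCCP + DHA, 11.7 with CCCP, 10.3 with DHA and 5.22 in control and was 6.51-fold (5.98 to 7.1) higher. VEGFA, the angiogenic growth factor, had 21.2 FPKM with CCCP + DHA, 4.53 with CCCP, 12.9 with DHA and 8.75 in control. It was 2.42-fold (2.31 to 2.54) higher, while CCCP alone lay below control. All 6 measured genes of the 12 listed here lay above control and 4 were higher by the 2-fold rule. INHBE, 1 of the 4, was measured only through CCCP + DHA. STC2, also among the 4, is counted in the ATF4 and CHOP arm too.

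The response of the endoplasmic reticulum was divided. Of 26 measured folding and sensor genes, 0 were higher and 7 lower. The lower genes were the lumenal chaperones and oxidoreductases CALR, PDIA4, HSP90B1 and PDIA3 with CRELD2, SDF2L1 and MANF. CALR, the calcium-binding lectin chaperone, had 116 FPKM with CCCP + DHA, 284 with CCCP, 302 with DHA and 430.0 in control, and PDIA4, a disulfide isomerase, had 27 FPKM with CCCP + DHA, 74.3 with CCCP, 62.3 with DHA and 101 in control. Both were highest in control, intermediate with each compound and lowest with CCCP + DHA, 3.7-fold (3.59 to 3.81) and 3.75-fold (3.54 to 3.96) lower. HSPA5, the chaperone BiP, was 1.4-fold (1.37 to 1.43) lower, with its lowest level in the library with CCCP alone (199, 139.8, 214 and 279 FPKM with CCCP + DHA, CCCP, DHA and control). The sensors ERN1 and ATF6 and the transcription factor XBP1 lay on the other side, at log2 ratios of 0.95, 0.56 and 0.84, under the 2-fold rule. The cytosolic heat shock genes held 0 higher and 1 lower gene of 25, or 4%. The share lower was 5.4% over all measured genes and 3.73% over protein-coding ones. The lower one was HSPA1A at -1.14, which shares nearly its whole sequence with HSPA1B, at -0.92, so that reads of the pair are uncertain.

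Most NRF2 targets lay above control. Of 24 measured, 9 were higher, 0 lower and 22 above control, with a median log2 ratio of 0.80 beside 0.28 for CCCP alone and 0.22 for DHA alone. Of the 9, 1 was measured only through CCCP + DHA. NQO1, a quinone reductase, had 241 FPKM with CCCP + DHA, 110.3 with CCCP, 92.2 with DHA and 44 in control, and TXNRD1, thioredoxin reductase, had 564 FPKM with CCCP + DHA, 329 with CCCP, 268 with DHA and 167 in control. In both genes every treated library lay above control and the combination was highest, 5.47-fold (5.25 to 5.7) and 3.38-fold (3.33 to 3.43) higher. SQSTM1, a cargo receptor of selective autophagy and an NRF2 target, was 3.17-fold (3.08 to 3.26) higher. ME1, a source of NADPH, was 2.18-fold (1.94 to 2.46) higher. HMOX1, heme oxygenase and a usual NRF2 target, had 9.68 FPKM with CCCP + DHA, 4.68 with CCCP, 5.31 with DHA and 8.08 in control and was 1.2-fold (1.04 to 1.38) higher, with both single-compound libraries below control. UGDH was the lowest member at -0.75.

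The largest gain in FPKM of any gene was in ferritin light chain. FTL had 11355 FPKM with CCCP + DHA, 7916 with CCCP, 4160.4 with DHA and 3199 in control and was 3.55-fold (3.52 to 3.58) higher, and FTH1, the heavy chain, had 430.4 FPKM with CCCP + DHA, 201 with CCCP, 184 with DHA and 150.3 in control and was 2.86-fold (2.78 to 2.95) higher. Ferritin stores iron in a non-reactive form. With it the 24 listed iron and heme genes summed to 12141 FPKM with CCCP + DHA and 3653 in control. The median log2 ratio of the 23 measured was nevertheless 0.08. ALAS1, the first enzyme of heme synthesis, was 2.25-fold (2.03 to 2.49) higher, but ALAD, the enzyme that follows, was 2.21-fold (1.96 to 2.51) lower. TFRC, the transferrin receptor that brings iron in, had 50.9 FPKM with CCCP + DHA, 12.4 with CCCP, 28 with DHA and 31.9 in control. It was 1.59-fold (1.54 to 1.65) higher, and CCCP alone lay below control. Ferritin genes have many pseudogene copies that can share their reads. Of 6 measured ferritin pseudogenes 5 were higher, with 684 reads summed with CCCP + DHA and 202 in control. The list around the tricarboxylic acid cycle held 1 higher gene of 24, or 4.17%, beside 4.54% over all measured genes and 2.22% over protein-coding ones. This gene was IDH1, a cytosolic source of NADPH. It had 38.7 FPKM with CCCP + DHA, 12.5 with CCCP, 10.7 with DHA and 10.1 in control and was 3.85-fold (3.57 to 4.14) higher, whereas its mitochondrial relative IDH2 was 2.0-fold (1.79 to 2.23) lower.

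CYP1A1 had the highest log2 ratio, with 0.5 added to each FPKM, of all protein-coding genes that averaged 5 FPKM or more, while the fold without that addition was larger for INHBE. The gene (ENSG00000140465, chromosome 15, 74719542 to 74725610 on GRCh38) encodes a cytochrome P450 that the aryl hydrocarbon receptor induces. It had 49.8 FPKM with CCCP + DHA, 76.5 with CCCP, 0.726 with DHA and 1.03 in control. Both libraries with CCCP were high and both without it low, and the combination was 48.3-fold (38 to 62.2) higher. Of 7 measured genes tied to this receptor, NQO1 was the only other one past 2-fold. TIPARP, a repressor of the receptor, was 1.9-fold (1.79 to 2.03) higher, and CYP1B1, a related P450, had 1.57 FPKM with CCCP + DHA, 3.0 with CCCP, 0.618 with DHA and 1.00 in control.

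Inflammatory genes were measured at mostly low levels. Of 18 measured interleukin, chemokine and NF-kB genes, 10 were higher and 1 lower. The filter fixed part of this count. Of the 2 libraries compared, 5 of the higher genes reached 1 FPKM only with CCCP + DHA, and 1 gene, CCL2, only in control. The interleukin genes IL1A and IL1B, whose products start inflammatory signalling, had 13 and 5 control reads, so their folds are loosely bounded. IL1A had 11.8 FPKM with CCCP + DHA, 1.49 with CCCP, 0.437 with DHA and 0.314 in control and was 37.6-fold (21.7 to 71.1) higher. IL1B had 5.8 FPKM with CCCP + DHA, 1.43 with CCCP, 0.45 with DHA and 0.116 in control and was 49.9-fold (24 to 125) higher. PTX3, a soluble pattern recognition protein induced by IL-1, had 37.4 FPKM with CCCP + DHA, 2.44 with CCCP, 2.75 with DHA and 1.19 in control. The combination library stood far above the other 3, and the gene was 31.4-fold (23.3 to 43.2) higher. IL6 and CXCL8, a cytokine and a neutrophil attractant, were 5.49-fold (4.29 to 7.11) and 2.04-fold (1.85 to 2.25) higher, with CXCL8 below control under CCCP alone at a log2 ratio of -0.91. Of the NF-kB subunits, RELB was 5.41-fold (4.21 to 7.04) higher and NFKB1 1.14-fold (1.03 to 1.26) higher. LIF, a cytokine of the IL-6 family, was 1.64-fold (1.55 to 1.73) lower, and CCL2, a monocyte attractant, was 3.86-fold (2.14 to 7.48) lower with 0.408 and 1.58 FPKM. Among 13 leukocyte markers CD3E, CD3D, MS4A1 and LYZ had 0 reads in all 4 libraries, and the list summed to 0.410, 0.753, 1.13 and 1.40 FPKM with CCCP + DHA, CCCP, DHA and control.

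SERPINB2, which inhibits plasminogen activators, had 75.7 FPKM with CCCP + DHA, 35.4 with CCCP, 5.85 with DHA and 2.82 in control. Its 2 libraries with CCCP stood above those without, and it was 26.8-fold (22.8 to 31.8) higher. SERPINB2 was the only one of 8 measured serpin and plasminogen genes past 2-fold, or 12.5%, beside 2.22% of protein-coding genes. Of 10 measured keratin and keratin-associated genes 3 were higher, KRT34, KRT31 and KRTAP2-3. KRT34, a hair keratin, had 669 FPKM with CCCP + DHA, 129.9 with CCCP, 156 with DHA and 32.9 in control and was 20.3-fold (19.1 to 21.6) higher, with the neighbouring KRT31 14.4-fold (10.9 to 19.4) higher. These 2 genes are close relatives in the same cluster, and part of the reads may be shared. KRT33B, another hair keratin, had 67.1 FPKM with CCCP + DHA, 169 with CCCP, 62 with DHA and 70.1 in control, with CCCP alone the high library. KRT8 and KRT18, keratins of simple epithelia, were 1.45-fold (1.42 to 1.48) and 1.36-fold (1.32 to 1.4) lower.

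Among signalling genes, the immediate early class held 3 higher and 1 lower of 21 measured. These were 14.3% and 4.76%, against 4.54% and 5.4% over all measured genes and 2.22% and 3.73% over protein-coding ones. ATF3, KLF4 and DUSP1 were higher, 1 of them measured only through CCCP + DHA, and EGR1 was lower. MYC had 103 FPKM with CCCP + DHA, 62.9 with CCCP, 78.1 with DHA and 63 in control and was 1.64-fold (1.58 to 1.71) higher. Of 22 genes that report or restrain MAP kinase signalling, 3 were higher, or 13.6%, the phosphatase genes DUSP5, DUSP1 and DUSP6. DUSP5 had 32.7 FPKM with CCCP + DHA, 9.82 with CCCP, 12.9 with DHA and 8.98 in control and was 3.64-fold (3.28 to 4.06) higher. The p53 list held 3 higher and 1 lower of 26, or 11.5% and 3.85%. Of the 3, SESN2 is also counted in the ATF4 and CHOP arm and among the mTORC1 brakes. GADD45A, a growth arrest gene on the p53 list, had 103 FPKM with CCCP + DHA, 58.1 with CCCP, 42.6 with DHA and 26.7 in control. It was 3.87-fold (3.61 to 4.14) higher. CDKN1A, the p21 inhibitor of cyclin-dependent kinases, was 1.52-fold (1.45 to 1.6) higher. The BH3-only death genes BBC3 and PMAIP1 were 2.24-fold (1.98 to 2.55) and 1.78-fold (1.57 to 2.01) higher, BMF, of the same class, was 2.35-fold (1.95 to 2.84) lower, and the survival gene MCL1 was 1.01-fold (0.969 to 1.05) lower.

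Cell cycle genes formed the largest listed groups on the lower side. All 36 DNA replication and S phase genes lay below control and 20 were lower, with a median log2 ratio of -1.02. Of 42 measured mitosis genes of 43, 41 lay below control and 30 were lower, with a median of -1.18. The exception was BUB3 at 0.05. In this bulk RNA, fewer cells in a phase and less RNA per cell cannot be told apart.
The 2 lists differed in the single-compound libraries. With CCCP the median of S phase genes was -0.55 and with DHA -0.11, and the medians of mitosis genes were -0.08 and -0.21. UHRF1, which carries DNA methylation through replication, had 6.37 FPKM with CCCP + DHA, 11.2 with CCCP, 21.4 with DHA and 25.8 in control and was 4.05-fold (3.7 to 4.45) lower. PCNA, the sliding clamp of DNA polymerases, had 42.7 FPKM with CCCP + DHA, 71.7 with CCCP, 108 with DHA and 118 in control and was 2.76-fold (2.58 to 2.96) lower. In both, CCCP alone lay between the combination and control and DHA alone near control. For the mitotic activator CDC20 the levels were 31.3 FPKM with CCCP + DHA, 65.1 with CCCP, 60.2 with DHA and 74.2 in control, and for the kinesin KIF20A 7.98 FPKM with CCCP + DHA, 29.8 with CCCP, 22.5 with DHA and 36 in control. Here both single-compound libraries lay nearer to control, and the combination stood alone, 2.37-fold (2.21 to 2.54) and 4.51-fold (4.12 to 4.96) lower. Some mitotic genes were above control with CCCP alone, such as CENPE, a kinetochore motor, at 1.33 FPKM with CCCP + DHA, 3.83 with CCCP, 2.56 with DHA and 2.39 in control. MKI67, the proliferation marker, had 8.47 FPKM with CCCP + DHA, 23.1 with CCCP, 24.4 with DHA and 27.5 in control.

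Genes of nucleotide supply were divided. Of 23 measured genes 4 were lower, or 17.4%, beside 3.73% of protein-coding genes. Among these 4 were TK1, RRM2 and TYMS of deoxynucleotide supply. RRM2, the S phase subunit of ribonucleotide reductase, was 3.18-fold (2.93 to 3.45) lower, and RRM2B, its p53-induced relative, was 1.54-fold (1.4 to 1.68) higher. Purine synthesis lay slightly above control, GART at 0.49 and ATIC at 0.53. Among G1 regulators 6 of 23, or 26.1%, were lower, including E2F2 and MYBL2, which drive S phase and mitotic genes, at -1.77 and -1.66. CCND1 and CDK4, the cyclin D1 and kinase of early G1, were near control at 0.12 and 0.18.

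Promoters of the 2 cell cycle lists held different letters. TTTGAA, the core of the cell cycle homology region through which MuvB complexes time mitotic genes, was in 15.2% of all windows and 13.4% of measured protein-coding genes with a window, in 25 of 34 mitosis genes with a window and in 0 of 32 S phase genes. Within the mitosis list it was in 17 of 24 lower genes and in 8 of 10 of the others. TTTCCCGC, an E2F element, was in 1.63% of all windows and 3.43% of those genes, in 10 of 32 S phase genes and in 1 of 34 mitosis genes. The windows of CDC20 (chr1:43358731-43359030, plus strand) and UHRF1 (chr19:4909251-4909550, plus strand) are shown as 1 example of each, with matches on either strand in capitals. In CDC20 they begin 178 and 65 bases and in UHRF1 14 bases before the start.
CDC20: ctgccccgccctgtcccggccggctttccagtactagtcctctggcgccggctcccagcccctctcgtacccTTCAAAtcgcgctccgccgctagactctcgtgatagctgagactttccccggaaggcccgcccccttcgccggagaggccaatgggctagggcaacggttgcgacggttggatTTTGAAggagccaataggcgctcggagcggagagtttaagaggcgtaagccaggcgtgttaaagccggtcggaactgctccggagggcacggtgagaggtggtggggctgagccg
UHRF1: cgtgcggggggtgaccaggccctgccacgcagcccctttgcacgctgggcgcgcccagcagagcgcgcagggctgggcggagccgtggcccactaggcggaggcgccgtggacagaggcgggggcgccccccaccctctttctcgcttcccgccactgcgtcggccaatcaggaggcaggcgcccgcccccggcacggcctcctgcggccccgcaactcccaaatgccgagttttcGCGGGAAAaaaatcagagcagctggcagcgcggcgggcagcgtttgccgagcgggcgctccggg

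**Figure D4:**
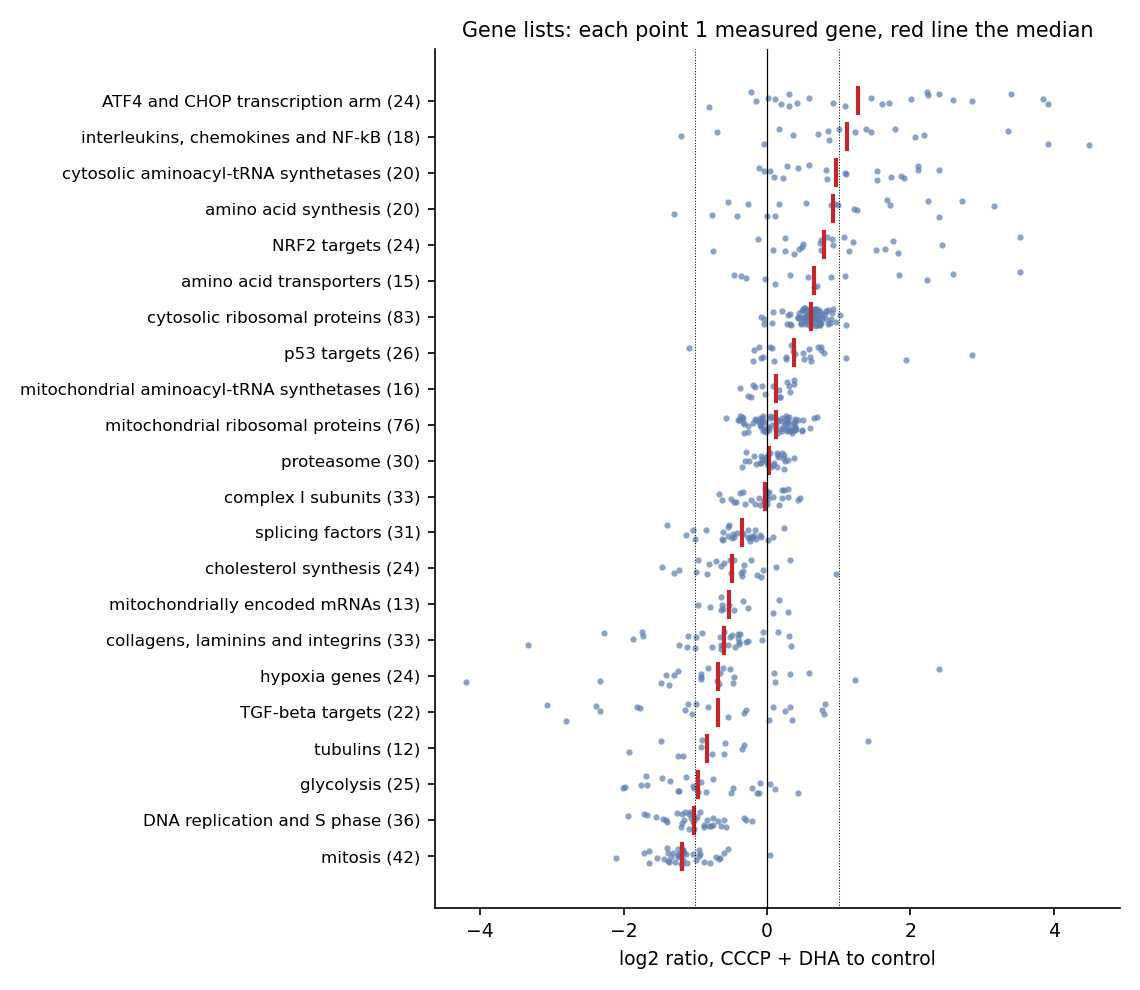
Log2 ratios to control for the measured members of 22 gene lists with CCCP + DHA, 1 point per gene, with list medians in red, dotted lines at 2-fold and the number of genes in brackets. Mitosis, S phase and glycolysis genes lie mostly below 0, and ATF4 arm and cytosolic synthetase genes mostly above.

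Glycolysis genes lay below control at most steps. Of 25 measured genes 12 were lower, 0 higher and 22 below control. The summed level of all 26 listed genes was 2062 FPKM with CCCP + DHA, 2695 with CCCP, 4019 with DHA and 4330.3 in control. The glucose carrier SLC2A1 (GLUT1) had 45.6 FPKM with CCCP + DHA, 71.8 with CCCP, 112 with DHA and 118 in control. LDHA, the lactate dehydrogenase chain of hypoxic cells, had 111 FPKM with CCCP + DHA, 182 with CCCP, 362 with DHA and 443 in control. Both libraries with CCCP were low and DHA alone was near control, and the combination was 2.58-fold (2.49 to 2.68) and 3.97-fold (3.9 to 4.05) lower. In the middle of the pathway TPI1, PGK1, PGAM1, ENO1 and PKM had log2 ratios of -1.24, -1.69, -1.68, -1.02 and -1.04. PFKFB3 and PFKFB4, which make the activator of phosphofructokinase, were 3.58-fold (3.28 to 3.9) and 4.94-fold (4.21 to 5.84) lower. GAPDH, often taken as a reference transcript, had 844 FPKM with CCCP + DHA, 1085 with CCCP, 1459 with DHA and 1516 in control and was 1.8-fold (1.78 to 1.82) lower. The first step did not share this, with HK1 at -0.12 and HK2 at -0.21, and HKDC1, a further hexokinase gene, had 10.5 FPKM with CCCP + DHA, 1.35 with CCCP, 3.45 with DHA and 1.59 in control and was 6.57-fold (5.46 to 7.96) higher.

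A hypoxia list that shares only PDK1 with the glycolysis list varied more, with 7 lower and 2 higher of 24. CA9 (ENSG00000107159, chromosome 9, 35673856 to 35681159 on GRCh38), a membrane carbonic anhydrase that HIF-1 induces, had 2.15 FPKM with CCCP + DHA, 17.1 with CCCP, 31.2 with DHA and 48 in control. Each single-compound library lay below control and the combination was lowest, on 62 reads against 1561 in control, and 22.3-fold (17.3 to 29.3) lower. BHLHE40, a repressor, and BNIP3, a mitophagy receptor, were 5.44-fold (4.84 to 6.12) and 2.61-fold (2.49 to 2.73) lower, and the host transcript of a hypoxia microRNA, MIR210HG, was 5.37-fold (3.98 to 7.37) lower. HIF1A mRNA was 1.07-fold (1.05 to 1.09) higher. EPAS1, which encodes HIF-2alpha, had 82.9 FPKM with CCCP + DHA, 17.6 with CCCP, 29.6 with DHA and 15.3 in control. It was 5.43-fold (5.18 to 5.69) higher, the opposite direction to most of the list, with VEGFA the other higher member.
The letters ACGTG, the core of the hypoxia element, are common, being in 21.4% of all windows and 33.2% of measured protein-coding genes with a window. They were in 13 of 19 hypoxia genes, 4 of 6 that were lower, 0 of 1 higher and 9 of 12 of the others. Of 22 glycolysis genes 14 held them, 7 of 12 that were lower and 7 of 10 of the others. The window of CA9 (chr9:35673678-35673977, plus strand) is shown because the gene had the lowest ratio of all protein-coding genes that averaged 5 FPKM or more. Its 1 match, in capitals, begins 18 bases before the start.
CA9: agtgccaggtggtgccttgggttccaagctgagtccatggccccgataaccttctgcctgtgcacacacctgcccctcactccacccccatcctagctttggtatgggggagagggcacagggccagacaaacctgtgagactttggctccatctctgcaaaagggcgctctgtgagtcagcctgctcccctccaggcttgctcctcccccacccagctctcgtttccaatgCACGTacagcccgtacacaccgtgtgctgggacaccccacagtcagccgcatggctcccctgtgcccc

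Mitochondrially encoded rRNAs and mRNAs differed in direction. The rRNA gene MT-RNR1 had 1207 FPKM with CCCP + DHA, 874 with CCCP, 773 with DHA and 519 in control, and MT-RNR2 had 4052 FPKM with CCCP + DHA, 3751 with CCCP, 2763 with DHA and 1947 in control. Both were lowest in control and highest with CCCP + DHA, 2.32-fold (2.27 to 2.38) and 2.08-fold (2.06 to 2.1) higher. Of the 13 mRNAs, 10 lay below control and none passed 2-fold. MT-ND1 and MT-ND2, which follow the rRNAs on the same strand, were 1.23-fold (1.21 to 1.25) and 1.13-fold (1.11 to 1.14) higher, and MT-ND3, which lies among the genes below control, was 1.06-fold (1.03 to 1.09) higher. MT-CO2, a subunit of complex IV, had 3164 FPKM with CCCP + DHA, 6157 with CCCP, 6372 with DHA and 6187 in control and was 1.96-fold (1.93 to 1.98) lower, both single-compound libraries being at the control level. MT-CO3, MT-ATP6 and MT-CO1 were at -0.79, -0.64 and -0.61, and MT-ND6, alone on the other strand, at -0.65. As the kit does not mark strand, reads of MT-ND6 cannot be told from RNA of the opposite strand over the same bases. The 13 mRNAs summed to 11.6% of all FPKM with CCCP + DHA, 15.9% with CCCP, 17.1% with DHA and 16.9% in control. Of 22 mitochondrial tRNA genes, 8 had at least 30 reads over the 2 libraries, and 4 of these were lower.

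**Figure D5:**
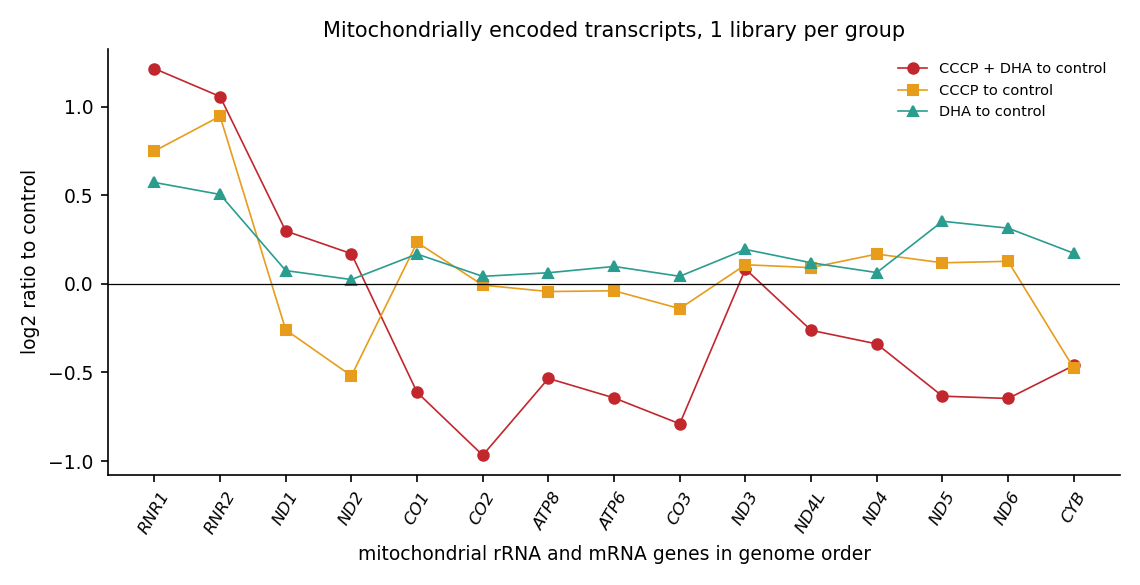
Log2 ratio to control of the 2 rRNA and 13 mRNA genes of mitochondrial DNA in genome order, for CCCP + DHA and for each compound alone, all against the same control library. With CCCP + DHA the rRNAs lie at 1.22 and 1.06 and MT-CO2 at -0.97, while with DHA alone the mRNAs lie near or above 0.

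Nuclear genes of complex I, complex IV and ATP synthase held no call. Of 33 complex I, 10 complex IV and 19 ATP synthase genes measured, 0 were higher or lower, with medians of -0.03, 0.06 and -0.17. Mitochondrial ribosomal protein genes had a median of 0.12 over 76. HSPA9, the matrix chaperone mortalin, had 82.9 FPKM with CCCP + DHA, 32.4 with CCCP, 45.2 with DHA and 33.9 in control and was 2.45-fold (2.37 to 2.53) higher. It was the only 1 of 22 mitochondrial chaperone and protease genes past 2-fold, or 4.55%. The share higher was 4.54% over all measured genes and 2.22% over protein-coding ones. LONP1, a matrix protease, was 1.79-fold (1.7 to 1.88) higher, and HSPE1, the cochaperone of HSPD1, was 1.95-fold (1.73 to 2.2) lower while HSPD1 was 1.58-fold (1.55 to 1.62) higher.

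Of 24 genes that mark mitochondria for removal, SQSTM1 was the higher and BNIP3 the lower one. Each made up 4.17%. Over all measured genes 4.54% were higher and 5.4% lower, and over protein-coding ones 2.22% and 3.73%. PINK1, the kinase that senses lost membrane potential, had 7.62 FPKM with CCCP + DHA, 12.7 with CCCP, 6.76 with DHA and 8.39 in control. Only CCCP alone stood above control, and the combination was 1.1-fold (0.991 to 1.22) lower. The other soluble receptors TAX1BP1, OPTN, CALCOCO2 and NBR1 were at log2 ratios of 0.84, 0.64, 0.61 and 0.58. In the autophagy machinery 3 of 31 measured genes were higher, or 9.68%, beside 2.22% of protein-coding genes. They were MAP1LC3B, MAP1LC3B2 and WIPI1. MAP1LC3B, whose product coats autophagosomes, had 63.5 FPKM with CCCP + DHA, 18.1 with CCCP, 23.8 with DHA and 18 in control and was 3.52-fold (3.34 to 3.71) higher, and its near copy MAP1LC3B2 may share reads with it. Lysosome genes had a median of -0.06 and proteasome genes 0.03.

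Ribosomal protein genes lay above control by a small margin. Of 83 measured, 80 lay above control, against 51.4% of all measured genes, 2 were higher by the 2-fold rule, and the median log2 ratio was 0.62. The medians for the single compounds were 0.39 with CCCP and 0.44 with DHA, against the same control library. All 87 listed ribosomal protein genes summed to 11.3% of all FPKM with CCCP + DHA, 9.13% with CCCP, 9.59% with DHA and 7.47% in control. RPL13A had 2017 FPKM with CCCP + DHA, 1787 with CCCP, 1866 with DHA and 1313 in control, with every treated library above control. The elongation factors EEF1A1 and EEF2 were 1.83-fold (1.82 to 1.84) and 1.84-fold (1.82 to 1.86) higher. Of 30 translation factors 4 were higher, or 13.3%, beside 2.22% of protein-coding genes. Of these 4, 1 was measured only through CCCP + DHA. EIF1, which guards start codon choice, had 262 FPKM with CCCP + DHA, 120.1 with CCCP, 147 with DHA and 83.3 in control and was 3.15-fold (3.05 to 3.24) higher, EIF2S2, a subunit of eIF2, was 2.44-fold (2.32 to 2.56) higher, and EIF4EBP1, the inhibitor of eIF4E, was 2.16-fold (2.03 to 2.31) higher. EIF3C was the fourth, at 1.74, and it has a near-identical copy. Short genes were called more often than long ones, 3.64 and 4.88% higher and lower in the bin of shortest exon length and 1.55 and 2.40% in the bin of longest, among 6451 protein-coding genes that averaged 5 FPKM or more. Of 86 measured pseudogenes of ribosomal protein and EEF1 genes 73 lay above control.

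Genes of lipid synthesis passed the 2-fold rule only on the lower side. Cholesterol synthesis and uptake genes lay below control in 21 of 24, and 3 were lower, or 12.5%. The share lower was 5.4% over all measured genes and 3.73% over protein-coding ones. INSIG1, which holds back sterol synthesis when sterols are plentiful, was 1 of them, with 2.13 FPKM with CCCP + DHA, 5.67 with CCCP, 3.8 with DHA and 5.94 in control, and it was 2.79-fold (2.29 to 3.42) lower. Of 21 fatty acid genes 3 were lower, or 14.3%. They were the desaturases FADS2 and SCD and the acyltransferase GPAM, at -1.50, -1.36 and -1.25. FADS2, which starts the making of polyunsaturated fatty acids, had 4.6 FPKM with CCCP + DHA, 9.4 with CCCP, 9.55 with DHA and 13.9 in control. Genes of fatty acid oxidation and PPAR targets held no call among 15, with a median of 0.31.

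Matrix and TGF-beta genes included further lower genes. Of 33 measured collagen, laminin, integrin and matrix genes 9 were lower and 0 higher. All 42 listed summed to 1761, 2673, 2652 and 3058 FPKM with CCCP + DHA, CCCP, DHA and control. THBS1, a matrix protein that activates latent TGF-beta, had 145 FPKM with CCCP + DHA, 339 with CCCP, 513 with DHA and 706 in control and was 4.86-fold (4.79 to 4.92) lower. SPARC, a collagen-binding protein, had 63.6 FPKM with CCCP + DHA, 201 with CCCP, 151 with DHA and 211 in control and was 3.32-fold (3.22 to 3.43) lower. COL1A1, a chain of type I collagen, had 0.425 FPKM with CCCP + DHA, 2.54 with CCCP, 2.09 with DHA and 8.86 in control and was 20.9-fold (16.5 to 26.8) lower. In all 3 the combination was the lowest library and control the highest.
Of 22 TGF-beta targets 9 were lower. PMEPA1, a feedback inhibitor of the pathway, had 7.45 FPKM with CCCP + DHA, 7.58 with CCCP, 27 with DHA and 41 in control, the combination and CCCP alone being about equally low. LBH, a transcriptional regulator, had 10.3 FPKM with CCCP + DHA, 46.4 with CCCP, 54.1 with DHA and 74.5 in control and was 7.25-fold (6.75 to 7.8) lower, here with the combination low alone. The BMP targets included ID1, which was 1.74-fold (1.6 to 1.89) higher, ID2, which was 1.91-fold (1.5 to 2.45) higher, and ID3, which was 1.73-fold (1.56 to 1.92) higher. IGFBP5, which binds insulin-like growth factors, had 1.06 FPKM with CCCP + DHA, 18.4 with CCCP, 6.62 with DHA and 9.2 in control. It was 8.67-fold (7.17 to 10.6) lower, whereas CCCP alone was above control. Of 12 fibroblast markers COL1A1, PDGFRB, FAP and FBN1 were measured and LUM and THY1 had 0 reads in all libraries, and the list summed to 31.6, 49.9, 47.8 and 73.4 FPKM with CCCP + DHA, CCCP, DHA and control. It moved with the matrix genes, whose list also holds COL1A1, COL1A2, COL3A1 and COL6A3, and its part in them was not tested.

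YAP and TEAD targets were mixed. Of 23 measured, ANKRD1 and CYR61 were higher, or 8.70%, beside 2.22% of protein-coding genes. ANKRD1 had 133 FPKM with CCCP + DHA, 62 with CCCP, 49.5 with DHA and 26.3 in control and CYR61, a secreted matrix protein, had 1249 FPKM with CCCP + DHA, 1386 with CCCP, 760.1 with DHA and 548 in control. They were 5.05-fold (4.72 to 5.41) and 2.28-fold (2.25 to 2.31) higher, but CTGF, a close relative of CYR61, was 1.42-fold (1.38 to 1.46) lower. Actin and its regulators were mostly below control, 21 of 27, and 3 were lower, or 11.1%, beside 3.73% of protein-coding genes. VCL, which anchors actin at adhesions, was 2.33-fold (2.26 to 2.4) lower, and TMSB15A, a thymosin, was 12.8-fold (6.54 to 28.6) lower on few reads. ACTG1 had 2919.8 FPKM with CCCP + DHA, 5348 with CCCP, 3687 with DHA and 3709 in control, with CCCP alone above control and the combination below.

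The labelled cell type showed few of its lineage transcripts. Of 22 melanocyte and pigmentation genes 6 were measured, and TYR and PAX3 had 0 reads in all 4 libraries, while SOX10 and MLANA stayed under 1 FPKM. MITF, the lineage regulator, had 5.01 FPKM with CCCP + DHA, 8.89 with CCCP, 7.35 with DHA and 8.81 in control and was 1.76-fold (1.59 to 1.94) lower. GPNMB and PMEL, glycoproteins of the melanosome, were 1.5-fold (1.42 to 1.57) and 1.56-fold (1.14 to 2.14) lower. Of 10 measured genes known from uveal melanoma 1 was higher, or 10%, beside 2.22% of protein-coding genes. This gene was PRKCE, a protein kinase C downstream of the G proteins. It had 3.5 FPKM with CCCP + DHA, 0.991 with CCCP, 1.42 with DHA and 0.964 in control and was 3.63-fold (3.08 to 4.3) higher. PRKCE lay under 1 FPKM in control and was measured only through CCCP + DHA, so the filter fixed its direction. GNAQ, GNA11, BAP1 and SF3B1 were within 1.5-fold of control, at -0.06, -0.28, -0.09 and -0.19. Of 12 epithelial markers 3 were measured, and KRT5, KRT14 and ESRP1 had 0 reads throughout. The epithelial list summed to 270, 301, 348 and 379 FPKM with CCCP + DHA, CCCP, DHA and control. No endothelial marker of 8 passed 0.234 FPKM.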

How the data were processed

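The authors deposited 1 table of FPKM per library for 58735 genes, and per the labels' protocols library preparation used an Illumina TruSeq RNA kit on 1 ug of total RNA, and the kit does not mark strand. The sources used here do not give the aligner, counting tool or genome build. All gene identifiers matched GENCODE 29 on GRCh38, which supplied types, positions and exon lengths. FPKM times exon length gave whole reads for 100% of values within 0.01, and these reads gave depth and intervals. The deposited values already carried a median-of-ratios scaling and were used as they stand. Ratios used a pseudocount of 0.5 over genes with at least 1 FPKM in either library, with a 2-fold rule and conditional binomial intervals by the Clopper-Pearson method. The calculation was tested on simulated data.

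The comparison, its 68 gene lists and the search motifs were chosen with earlier results of these data known. Named genes were the 25 highest and 25 lowest ratios among protein-coding genes averaging 5 FPKM or more, the 5 highest and lowest of other types with at least 100 reads, the 10 largest gains and losses in FPKM, and members of the lists. Gene names follow the files, and some list members are counted but not reported here by name. Calculations ran in Python 3.11.15 on pandas 2.3.3, scipy 1.17.1 and numpy 2.4.6, and plots used matplotlib 3.10.9.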

Additional observations from a re-analysis of the deposited data

How the results depend on the processing

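Of 13016 measured genes 591 were higher and 703 lower under the 2-fold rule. Without the filter on low values the counts were 891 and 948, with a mean of at least 5 FPKM 208 and 291, among protein-coding genes alone 238 and 401, and with at least 100 reads over both libraries 274 and 422. Pseudocounts of 0.1 and 1 gave 766 and 919, and 442 and 515. Rescaling to equal totals gave 585 and 721, and median of ratios over protein-coding genes 580 and 712. Removing the exon-length trend, an alternative chosen after seeing the data, gave 533 and 735. The median log2 ratio of all genes stayed between 0.0054 and 0.017. Of 1202 recounts of gene lists 45 and of 601 list medians 36 moved past their margins, as did 70 of 250 values of single genes. A further 7 recomputed list medians, whose values before the change of setting lay near 0, changed sign. The tricarboxylic acid cycle median of 0.00052 became -5.72e-05 both without the filter and above a mean of 5 FPKM, -0.00843 with equal totals and -0.0102 with median of ratios. Without the filter the plasminogen system and serpins median of 0.030 became -0.072 and the replication-dependent histones median of 0.083 became -0.28, and above a mean of 5 FPKM the hair and simple keratins median of -0.025 became 0.043. The cause was not tested.

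With 1 library per group, leaving out a replicate was not possible. No paired analysis was possible because each group has 1 library and the labels give no replicate numbers. Without strand, reads of antisense genes cannot be told from those of the genes they overlap, and genes with few reads have wide intervals.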

Other observations

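Further gene lists were compared between the library with CCCP + DHA and control, again with 1 library each. Over all measured genes 4.54% were higher and 5.4% lower, and over protein-coding ones 2.22% and 3.73%. Tubulin genes were 4 lower and 1 higher of 12 measured. TUBA1A had 19.6 FPKM with CCCP + DHA, 58.6 with CCCP, 53.4 with DHA and 75.8 in control and was 3.86-fold (3.62 to 4.12) lower. TUBE1, the epsilon tubulin of centrioles, was the higher one, with 6.42 FPKM with CCCP + DHA, 2.96 with CCCP, 2.84 with DHA and 2.11 in control. Of 31 splicing factor genes 28 lay below control and 4 were lower. SRSF1, which promotes exon inclusion, had 11.7 FPKM with CCCP + DHA, 12.4 with CCCP, 23.1 with DHA and 31.3 in control and was 2.69-fold (2.46 to 2.94) lower. HNRNPM had 21.3 FPKM with CCCP + DHA, 16.6 with CCCP, 42.5 with DHA and 47.2 in control, its lowest level being with CCCP alone. MHC class I genes held no call, and 11 of 15 lay above control, HLA-B at 0.69 and B2M at 0.48. Among interferon-stimulated genes OAS3 was the 1 lower gene of 17 measured, at -1.18, or 5.88%.

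Some of the largest ratios were in genes on no list. LURAP1L had 39.5 FPKM with CCCP + DHA, 4.94 with CCCP, 4.79 with DHA and 1.52 in control and was 26-fold (20.2 to 34) higher. UPP1, which splits uridine into uracil and ribose phosphate, had 32.7 FPKM with CCCP + DHA, 8.42 with CCCP, 11.7 with DHA and 6.11 in control and was 5.36-fold (4.89 to 5.89) higher. CAV1, the coat protein of caveolae, had 11.8 FPKM with CCCP + DHA, 32.1 with CCCP, 38.6 with DHA and 57 in control and was 4.81-fold (4.47 to 5.19) lower. MYLK2, a myosin kinase gene, had 1.52 FPKM with CCCP + DHA, 0.925 with CCCP, 6.16 with DHA and 9.46 in control, so that its 2 libraries with CCCP were low. LMNB1, which encodes lamin B1 of the nuclear envelope, was 4.32-fold (3.96 to 4.72) lower, and the histone gene H2AFX was 4.06-fold (3.74 to 4.4) lower.

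Among gene types other than protein-coding, the interval excluded 1 for 164 of 353 higher and 158 of 302 lower genes, and the share differed by type. For antisense genes it did so for 26 of 31 higher and 46 of 55 lower, and for lincRNA genes for 20 of 22 and 32 of 37. Of 149 measured microRNA genes 45 were higher and 44 lower, but the interval excluded 1 for 3 and 5. For 102 snoRNA genes the counts were 38 and 20, with 7 and 2 intervals that excluded 1. Processed pseudogenes were 81 higher and 36 lower of 465, 69 and 23 of them with such intervals. LINC01638, a long noncoding RNA, had 20 reads with CCCP + DHA and 192 in control and was 8.51-fold (5.36 to 14.2) lower. RN7SL2, an RNA of the signal recognition particle, had 100.4 FPKM with CCCP + DHA, 152 with CCCP, 165 with DHA and 26.5 in control, all 3 treated libraries lying above control. AC037198.1 lies within an intron of THBS1 and had 3.16 FPKM with CCCP + DHA, 7.19 with CCCP, 15.4 with DHA and 19.6 in control, and since both lie on the plus strand its reads cannot be told from unspliced RNA of THBS1.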
